A study of Mus musculus with 4 samples.

Results

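The 10 genes described here are immediate early genes, chosen by name among the 18767 genes of the table: *Fos*, *Fosb*, *Jun*, *Junb*, *Egr1*, *Ier2*, *Nr4a1*, *Dusp1*, *Atf3* and *Btg2*. All 10 were found, and they were followed in the 824 of 991 deposited cells with more than 1200 genes. The cells came from mouse aorta, dissociated and sorted as CD31+ CD45- TO-PRO-3- cells to enrich endothelial cells (EC), and were profiled with SORT-seq, a plate-based method that counts 3′ transcript ends with unique molecular identifiers (UMIs). Libraries s001 and s002 carry the label *Jag1* ECKO, which stands for *Jag1* fl/fl mice with the tamoxifen-activated Cre recombinase CreERT2 driven by *Cdh5*, a gene of EC. Libraries s003 and s004 carry the label *Jag1* ECWT, *Jag1* fl/fl *Cdh5* +/+ mice without Cre. Per the study's methods, mice were male, of 1.5 to 3 months and on a C57BL/6J background, and tamoxifen was given at 2 mg per mouse per day for 5 days. The labels do not say whether these mice were given the high-fat diet used elsewhere in the study. The labels do not state that the 2 libraries of a label came from separate mice, so p-values measure the spread between libraries, which may be technical.

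Immediate early genes are transcribed within minutes of a stimulus, without new protein synthesis, by factors already present in the cell such as SRF, CREB and the ternary complex factors. Growth factors, cytokines, changes in flow and mechanical stress induce them in EC, and so does the enzymatic dissociation of a tissue. Their products are mostly transcription factors, together with phosphatases and other regulators that end the response, and many of their transcripts are short-lived. Here every library went through digestion at 37 °C, first for 10 min and then for 1 h, so expression in the vessel and expression begun during digestion cannot be told apart.

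The proximal promoters are shown because these genes share a short element there. RefSeq promoters (GRCm38.p6) were used for 8 of the 10 genes. *Egr1* was left out of the search because of its chromosome, 18, and no promoter was matched for *Ier2*. The counts below therefore say nothing about the promoters of *Egr1* and *Ier2*. The cAMP response element (CRE) TGACGTCA, which binds CREB and ATF proteins, lay within the 250 bases before the start site in *Dusp1* and *Btg2*, and in 1.55% of 32851 promoters of this length. Its core TGACG, on either strand and contained in the full element, lay in 7 of 8 windows, with *Jun* the exception, and in 17.8% of all promoters. The AP-1 element TGANTCA, the EGR element GCGTGGGCG and the CArG box of SRF, all searched on both strands, matched in 0 of 8 windows, against 6.75%, 0.536% and 1.47% of all promoters. The letters TATAAA occurred in *Fos*, from -33 to -28, and in 12.4% of promoters. Capitals mark the CRE and its core, and positions count back from -1, the base before the start site. The windows are *Fos* at chr12:85473640-85473889 (plus strand), *Fosb* at chr7:19310046-19310295 (minus), *Nr4a1* at chr15:101266596-101266845 (plus), *Dusp1* at chr17:26508473-26508722 (minus) and *Btg2* at chr1:134079156-134079405 (minus).
Fos: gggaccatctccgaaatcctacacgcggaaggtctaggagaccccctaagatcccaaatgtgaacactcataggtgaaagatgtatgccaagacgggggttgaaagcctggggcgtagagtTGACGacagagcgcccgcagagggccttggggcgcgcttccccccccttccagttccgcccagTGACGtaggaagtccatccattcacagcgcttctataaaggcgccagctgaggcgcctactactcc
Fosb: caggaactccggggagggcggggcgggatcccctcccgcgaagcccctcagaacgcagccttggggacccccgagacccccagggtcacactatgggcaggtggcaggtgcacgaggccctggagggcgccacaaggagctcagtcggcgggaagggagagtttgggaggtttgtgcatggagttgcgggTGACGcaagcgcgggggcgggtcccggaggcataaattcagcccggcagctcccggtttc
Nr4a1: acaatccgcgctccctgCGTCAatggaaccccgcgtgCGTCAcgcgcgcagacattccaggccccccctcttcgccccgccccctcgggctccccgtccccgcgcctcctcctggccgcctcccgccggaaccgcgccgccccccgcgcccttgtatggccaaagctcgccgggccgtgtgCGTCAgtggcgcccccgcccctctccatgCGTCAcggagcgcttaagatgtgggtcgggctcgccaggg
Dusp1: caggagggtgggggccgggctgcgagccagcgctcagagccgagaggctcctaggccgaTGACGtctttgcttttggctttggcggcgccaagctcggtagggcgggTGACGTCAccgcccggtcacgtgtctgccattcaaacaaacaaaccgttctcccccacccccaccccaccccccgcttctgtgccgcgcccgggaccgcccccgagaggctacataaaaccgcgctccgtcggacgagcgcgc
Btg2: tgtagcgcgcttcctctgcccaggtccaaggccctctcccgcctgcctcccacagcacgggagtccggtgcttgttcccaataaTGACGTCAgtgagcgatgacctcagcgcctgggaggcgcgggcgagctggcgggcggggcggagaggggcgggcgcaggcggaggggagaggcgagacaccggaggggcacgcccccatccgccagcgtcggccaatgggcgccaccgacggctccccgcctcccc
The core began at -129 and -66 in *Fos* and at -60 in *Fosb*. *Nr4a1* held 4, all on the opposite strand, and *Dusp1* held the full element from -143 to -136. A match is a description of letters and not evidence of binding. The windows of *Nr4a1*, *Dusp1* and *Atf3* (the last not shown) precede RefSeq's start site but lie inside the longer gene span of GENCODE M21.

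The 4 libraries held 202, 236, 140 and 246 cells and between 859280 and 1779042 counts. Median depth per cell was lowest in s001, at 4212 counts, and 5216 to 6518 in the other libraries, and the median mitochondrial share was 3.08 to 4.58%. The EC markers *Pecam1*, *Cdh5* and *Vwf* were present in all libraries, *Pecam1* at 4509 to 4785 CPM (counts scaled to the same total in every library). Where values are given in fours, their order is s001 and s002 (labelled *Jag1* ECKO), then s003 and s004 (labelled *Jag1* ECWT). *Jag1* itself went against the labels. It stood at 158 and 70.8 CPM in the libraries labelled *Jag1* ECKO and at 32.6 and 26.1 CPM in those labelled *Jag1* ECWT, with a log2 difference of 1.96 ± 0.37 (SE, edgeR adjusted p = 0.428). Counts come from 3′ ends and the position of the deleted exons is not given in the sources used here, so this level does not check the deletion. The study's own assays of the deletion in its mice, by qRT-PCR and staining, were not used here. Whether the labels of these libraries were exchanged was not tested, and an exchange would turn each difference between labels given below, but none between single libraries or classes of cells. Summed vascular smooth muscle cell (VSMC) markers, of which 9 or 10 of 10 were detected in each library with *Cnn1* at 0 in s003, were 3580, 1666, 454 and 1317 CPM. Fibroblast markers, with 10 of 10 detected, summed to 1471 to 2334 CPM. The haemoglobin gene *Beta-s* was at 83.7 CPM in s001 and at 0 elsewhere, and *Ptprc*, which encodes CD45, did not exceed 2.68 CPM.

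Immediate early genes were most abundant in a single library, s001. The 10 genes together took 0.228%, 0.0947%, 0.101% and 0.0864% of all counts. Their share in s001 was thus above that of the other library with its label as well as above both libraries of the other label. By label the share was 0.161% ± 0.0940 (SD, n = 2) for *Jag1* ECKO and 0.0939% ± 0.0106 (SD, n = 2) for *Jag1* ECWT, a difference smaller than the spread within the first (two-sided exact permutation p = 0.667, where 2 against 2 cannot go below 0.333). All 10 genes were highest in s001, as were 32.7% of the 9695 tested genes with a count in all 4 libraries, and 6 of the 10 were over 2-fold higher there than in s002, as were 5.86% of those genes. Across the 10, the median log2 difference between s001 and s002 was 1.17. Summed VSMC markers were also highest in s001. Without the 44 cells in which VSMC and fibroblast marker counts exceeded EC marker counts (described below), VSMC markers summed to 680 CPM in s001 and 375 to 544 CPM in the others, and the share of the 10 genes was 0.208% in s001 and 0.0803 to 0.0934% in the others. The part of these markers in the result was not tested. With each cell thinned to 2837 counts the shares were 0.217%, 0.102%, 0.110% and 0.0814%. Thinning is random and leaves the expected share of a cell unchanged, so these values do not test an effect of depth.

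The AP-1 subunits differed in how their levels fell across the 4 libraries. *Fos*, whose product pairs with JUN proteins to form AP-1, was at 165, 87.1, 30.3 and 71.7 CPM. *Fosb*, its paralog, was at 56.1, 33.7, 8.15 and 12.7 CPM. *Atf3*, a stress-induced partner in such dimers, was at 20.7, 20.2, 9.31 and 13.4 CPM. For these 3 genes both libraries labelled *Jag1* ECKO lay above both labelled *Jag1* ECWT, as was the case for 16% of all genes tested, although *Fosb* rested on 7 counts in s003 and *Atf3* on 8. *Jun*, the main partner of FOS, was at 516, 243, 286 and 334 CPM. *Junb*, which often restrains JUN, was at 301, 97.8, 129 and 69.0 CPM. In both JUN genes s002 lay among or below the libraries of the other label.

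Among the other transcription factors *Nr4a1* varied most between libraries. *Nr4a1*, an orphan nuclear receptor, was at 158, 13.5, 48.9 and 8.04 CPM, a 19.7-fold range that split each label into a high and a low library. *Egr1*, a zinc finger factor induced by shear stress, was at 347, 136, 182 and 99.2 CPM. Both genes, and *Junb* above, were high in s001 and s003 and low in s002 and s004. Between s003 and s004 the log2 difference was 2.60 for *Nr4a1*, 0.90 for *Junb* and 0.87 for *Egr1*, whereas its median over the 10 genes was 0.20.

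The regulators that close or shape the response showed the same high library. *Dusp1*, a phosphatase that inactivates MAP kinases, was at 310, 120, 109 and 73.0 CPM, which left the labels just apart. *Ier2*, a nuclear protein of less well known function, was at 212, 116, 129 and 109 CPM. *Btg2*, an antiproliferative cofactor that also promotes mRNA decay, was at 190, 79.3, 81.5 and 73.7 CPM. For *Ier2* and *Btg2* the last 3 libraries lay close together and s001 alone stood above them.

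**Figure D1:**
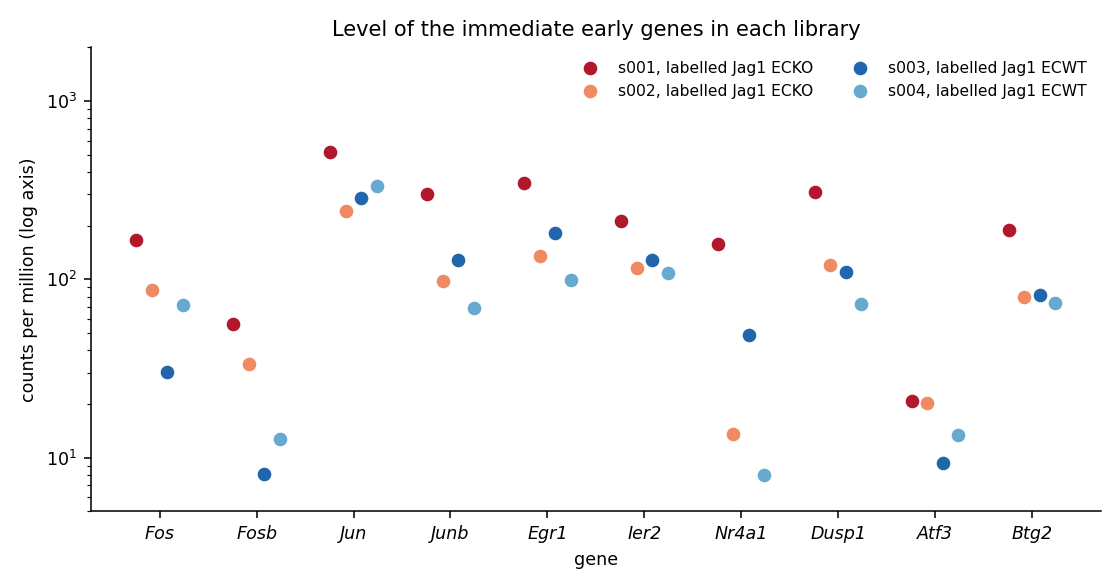
Level of each immediate early gene, in CPM on a log axis, in each of the 4 libraries (1 point per library, coloured by library and label). Library s001 is the highest point for all 10 genes, and *Nr4a1* spreads from 8.04 to 158 CPM.

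None of the 10 genes passed the test between labels. The edgeR quasi-likelihood test on counts summed per library called 0 of 10 at a Benjamini-Hochberg adjusted p below 0.05, and 0% of the 9730 genes tested, with 465 genes at an unadjusted p below 0.05 (DESeq2 called 0 genes, with 159 at an unadjusted p below 0.05). All 10 log2 differences (*Jag1* ECKO minus *Jag1* ECWT) were nonetheless positive, with a median of 0.92 beside -0.00104 over all genes, of which 49.9% were positive. The difference was greatest for *Fosb*, at 2.01 ± 0.39 (SE, edgeR adjusted p = 0.428). *Nr4a1* had 1.66 ± 1.03, *Dusp1* 1.24 ± 0.39 and *Fos* 1.22 ± 0.41 (edgeR adjusted p = 0.900 for each). The remaining values ran from 1.02 ± 0.47 for *Junb* through 0.82 ± 0.39 for *Atf3*, 0.79 ± 0.40 for *Egr1*, 0.77 ± 0.35 for *Btg2* and 0.46 ± 0.26 for *Ier2* to 0.28 ± 0.30 for *Jun*. At an unadjusted p below 0.05 stood 3 of the 10, *Fos*, *Fosb* and *Dusp1*, against 2.57% of all genes in that direction. On the CPM scale the labels did not overlap, with *Jag1* ECKO above, for 4 of the 10 (*Fos*, *Fosb*, *Atf3* and *Dusp1*) and for 16% of all genes tested. Summed VSMC markers did not overlap in the same direction (3580 and 1666 against 454 and 1317 CPM). Without the 44 cells with more VSMC and fibroblast than EC marker counts, 3 of the 10 did not overlap (*Fos*, *Fosb* and *Atf3*), and 15.9% of all genes, while VSMC markers stood at 680 and 544 against 375 and 382 CPM. Their part in the difference between labels was not tested.

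These differences depended on which libraries were compared. Without s001, the log2 difference was -0.83 for *Nr4a1*, -0.30 for *Jun*, 0.06 for *Egr1*, 0.05 for *Ier2* and 0.10 for both *Junb* and *Btg2*, and *Fosb* alone was called (1.68, edgeR adjusted p = 0.00800), when 1.82% of 10770 genes were called and 0.91% were called higher. Without s002, 9 of the 10 were called, all but *Atf3*, when 4.23% of 9851 genes were called and 1.66% were called higher. Without s003 or without s004, 0 of the 10 and 0 genes overall were called. Where s001 or s002 was left out the remaining library of that label was assumed to vary like the others. In these 4 comparisons 8 of the 10 differences stayed positive, all but those of *Nr4a1* and *Jun*. The 4 genes whose labels did not overlap had *Fosb* at 1.68 to 2.48, *Fos* at 0.74 to 2.09, *Dusp1* at 0.49 to 1.77 and *Atf3* at 0.59 to 1.19. With all 4 libraries but without a filter on low counts, 6 of the 10 passed in edgeR (*Fos*, *Fosb*, *Junb*, *Egr1*, *Nr4a1* and *Dusp1*), against 0.686% of 18508 genes, or 0.411% called higher. DESeq2, also run on 18508 genes without that filter, called 0 genes.

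**Figure D2:**
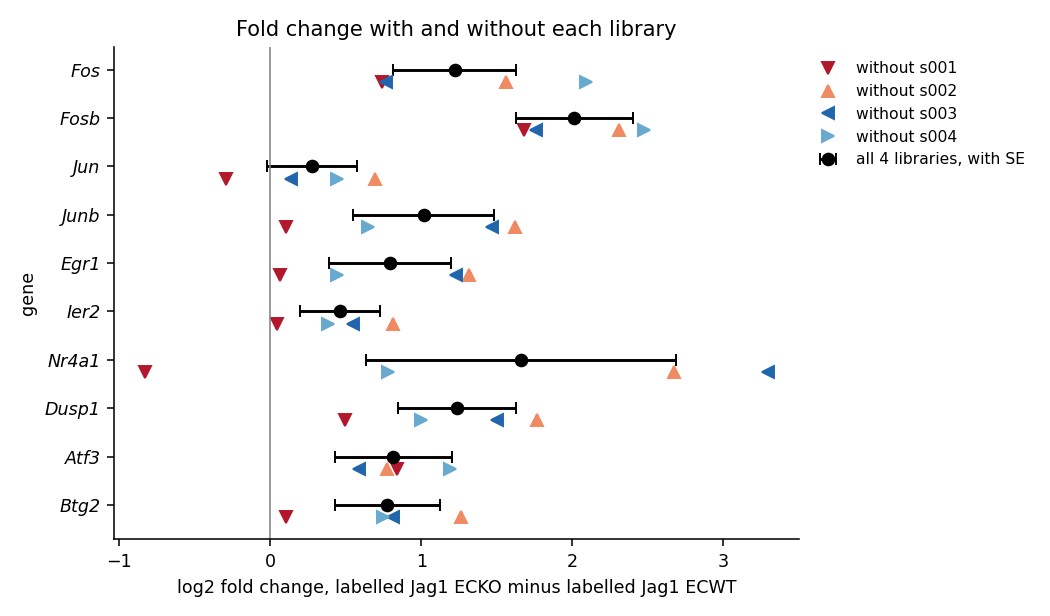
Log2 difference between the labels (*Jag1* ECKO minus *Jag1* ECWT) for each gene, over all 4 libraries (black circles, with the SE) and with each library left out (triangles). Without s001, *Nr4a1* and *Jun* fall below 0, while the 5 values of *Fosb* stay between 1.68 and 2.48.

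Within each library the 10 genes differed in how many cells they were detected in. *Jun* was the most widely detected, with a count in 79.7%, 65.3%, 60.0% and 65.9% of cells, and the 10% of cells with most *Jun* held 34.2 to 44.5% of its counts. *Fos* was detected in only 18.3%, 17.8%, 9.29% and 8.13% of cells. The top 10% of cells held 89.9% and 88.4% of *Fos* counts in s001 and s002, and a single cell reached 46, 40, 6 and 27 counts. *Egr1* lay between, with 37.1% of cells in s001 and 14.6% in s004, and a highest cell of 44 and 28 counts. *Fosb* was found in 2.86 to 7.43% of cells, *Atf3* in 3.66 to 7.63% and *Nr4a1* in 3.66 to 24.8%. Thus *Fos*, *Fosb* and *Atf3* were detected in a minority of cells, whereas *Jun* was detected in most cells.

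The spread over cells was also measured at equal depth, with each cell thinned to 2837 counts, the 10th percentile, which left out 82 cells. Among the remaining 166, 223, 127 and 226 cells, *Jun* was detected in 67.5% of cells in s001 (95% Wilson interval 60.0 to 74.1) and in 43.9%, 46.5% and 50.4% in the others. Detection of *Dusp1* was 42.2%, 22.4%, 21.3% and 15.0%, and that of *Nr4a1* was 20.5%, 1.79%, 6.30% and 1.77%. The variance of thinned counts over their mean, which is about 1 for pure counting noise, had a median over the 10 genes of 2.53, 2.51, 1.62 and 1.47. Over other genes in the same range of mean counts the median was 1.22, 1.10, 1.00 and 1.09. Their 95th percentile was 1.86, 1.55, 1.66 and 1.52, which lay above the median of the 10 genes in s003 and s004. The ratio was highest for *Fos* in s002, at 11.6, and was 2.58 to 4.12 for *Egr1*. Intervals cover counting error only.

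The genes also came up together in the same cells. If each gene were detected independently of the others at its own share, a cell of s001 would hold 5 or more of the 10 in 12.4% of cases, and 21.1% of cells did. In s002 the share was 6.73% against 0.830%, in s003 7.09% against 1.37%, and in s004 2.21% (5 cells) against 0.389%. Cells without any of the 10 were also more frequent in s001 to s003 (6.63%, 26.9% and 19.7%, against 2.07%, 15.6% and 11.4%), but not in s004 (17.3% against 17.5%). The mean number detected was 2.96, 1.60, 1.82 and 1.46, and its variance exceeded the independent value 2.34, 2.18, 1.94 and 1.39 times. The variance was therefore above the independent value in all 4 libraries, with the lowest ratio in s004, although relative to the independent share cells with 5 or more genes were in excess least in s001.

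**Figure D3:**
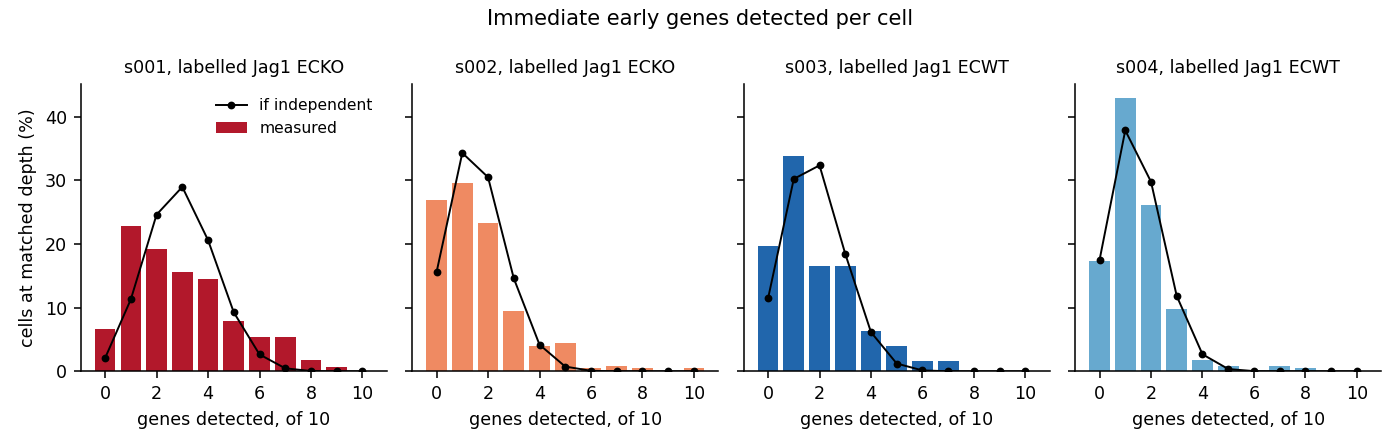
Share of cells (%, y axis) by the number of the 10 genes detected (x axis) at 2837 counts per cell, in 1 panel per library. Bars are measured shares and the black line is the share if the genes were independent. The bars exceed the line at 0 genes in s001 to s003, at 1 gene in s001, s003 and s004, and at 7 genes in all 4 libraries.

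For a pair of genes, co-detection was expressed as the number of cells with both over the number expected if independent. Over the 45 pairs the median ratio was 1.40, 1.94, 1.32 and 1.66. The ratio was above 1 for 43, 43, 29 and 35 pairs. Among all pairs of other genes in the same range of detection, 48.6%, 42.6%, 27.5% and 42.8% were above 1. This range was wide (0.787 to 46.5% of cells in s003). Pairs were not matched for detection within it, so these percentages are not a matched comparison. The other pairs had a median ratio of 0.987, 0.858, 0 and 0.867. Of them, 19.7%, 13.3%, 20.9% and 17.8% reached the median of the 45 pairs. Among the 45 pairs, the ratio was above 1 in all 4 libraries for 19, in 3 for 22 and in 2 for 4. Ratios of *Fosb*, *Atf3* and *Nr4a1* rest on few cells: *Fosb* was detected in 1 thinned cell of s003.

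The 6 more often detected genes gave steadier ratios. *Jun*, *Junb*, *Egr1*, *Ier2*, *Dusp1* and *Btg2* form 15 pairs, whose median ratio was 1.25, 1.48, 1.52 and 1.11, and which were above 1 for 15, 15, 14 and 9 pairs. Other genes with such detection had a median ratio between 1.00 and 1.01, with 52.6%, 50.4%, 50.3% and 50.2% of pairs above 1. Of these other pairs, 1.55%, 2.36%, 2.44% and 32.9% reached the median of the 15 pairs, so the value of s004 was not unusual. *Junb* with *Egr1* had the highest median over libraries, with ratios of 1.86, 1.79, 1.80 and 2.09. *Egr1* with *Btg2* was at 1.63, 1.66, 1.60 and 1.83. The 5 pairs with *Jun* had the lowest medians, from *Jun* with *Dusp1* (1.06, 1.05, 1.12 and 0.816) to *Jun* with *Btg2* (1.25, 1.24, 1.52 and 0.991). A ratio cannot exceed 1 over the detection share of the more often detected gene of the pair. *Jun* was the most often detected, so its pairs had the lowest upper limit and the order of the pairs depends in part on detection. In s004, 4 of the 5 pairs of *Jun* were below 1, and so were *Dusp1* with *Btg2* (0.831) and *Ier2* with *Btg2* (0.706). Among the rarer genes, *Fos* was found with *Jun* at 1.11, 1.14, 0.308 and 0.708 times the independent number. It was found with *Egr1* at 1.51, 1.94, 3.85 and 4.78 times that number, and *Nr4a1* with *Btg2* at 1.69, 4.78, 3.31 and 3.53 times.

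**Figure D4:**
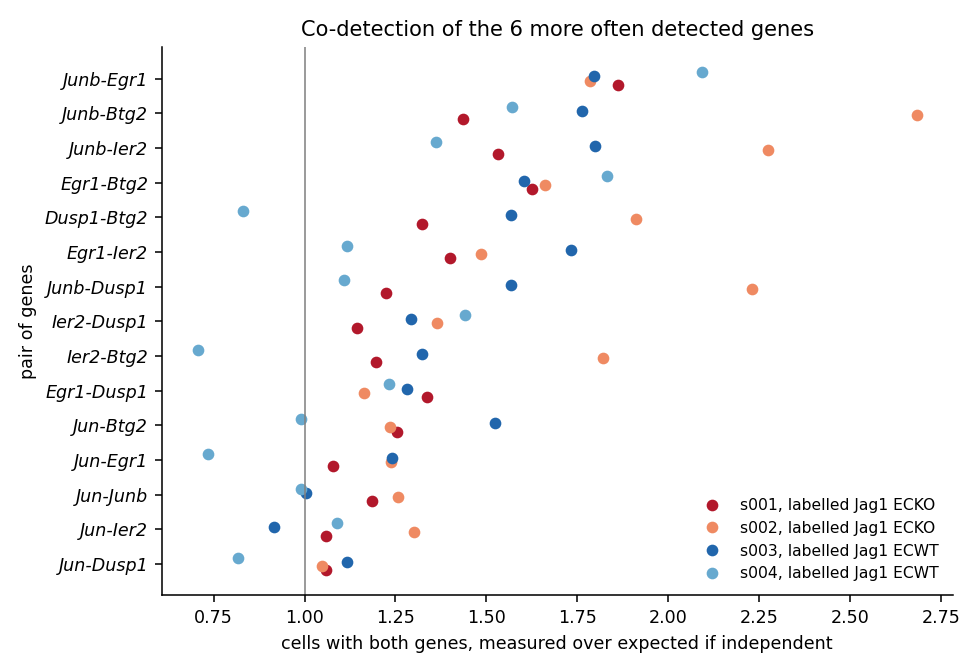
Ratio of measured to expected cells with both genes (x axis), at matched depth, for the 15 pairs of the 6 more often detected genes (y axis, ordered by their median), with 1 point per library. The grey line marks a ratio of 1. *Junb* with *Egr1* lies between 1.79 and 2.09 in all libraries, and the values below 1 belong to s004 apart from *Jun* with *Ier2* in s003.

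Correlation over cells described which gene moved most with the rest. On log2(count + 1) of thinned counts, *Junb* had the highest Pearson correlation with the summed other 9 genes in s001 to s003, at 0.57, 0.51 and 0.39, with 0.18 in s004, and *Egr1* had 0.48, 0.40, 0.36 and 0.15. In s004 all 10 correlations were low, the highest being 0.27 for *Fosb*. Points are cells of 1 library at the same depth, so no p is given. The summed count of the 10 was only weakly related to other cell properties within a library: Spearman's rho was -0.03 to 0.06 with total counts, -0.04 to 0.12 with mitochondrial counts, -0.05 to 0.16 with well number, 0.00 to 0.05 with EC markers and 0.05 to 0.10 with heat shock genes. With summed VSMC markers rho was 0.003, -0.08, -0.02 and 0.16 from s001 to s004, and with fibroblast markers 0.11, 0.12, 0.14 and 0.02. With the summed list of other immediate early genes it was 0.29, 0.33, 0.41 and 0.24.

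A small class of cells with markers of other vascular cells was rich in *Fos*, *Fosb* and *Atf3*. In 44 of the 824 cells (9, 15, 6 and 14 per library) the summed counts of 10 VSMC and 10 fibroblast markers exceeded those of 10 EC markers. The class is a range on a score, with 17 of its cells and 42 of those outside within 2-fold of the boundary, and doublets with EC were not removed. Its median cell had 29.5 EC marker counts and 104 of the other markers, against 55 and 7 outside, and a median depth of 6950 counts against 5229. These cells held 7.38% of all counts but 40.1% of *Fos* counts (183 of 456), 38.5% of *Fosb*, 41.2% of *Atf3* and 20.8% of *Egr1*. For *Jun* (8.82%) and *Ier2* (9.50%) the share was near that of all counts.

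Tested over libraries, 7 of the 10 were higher in this class. The edgeR test used sums per library and class with the library as a term and called *Fos*, *Atf3*, *Fosb*, *Nr4a1*, *Egr1*, *Btg2* and *Dusp1*, against 3.03% of 6796 genes higher at an adjusted p below 0.05. *Fos* was at 983, 354, 150 and 513 CPM in the class from s001 to s004 and at 105, 58.0, 23.4 and 44.1 CPM in the other cells, a log2 difference of 3.09 ± 0.31 (SE, edgeR adjusted p = 2.55e-07). *Atf3* was at 85.5, 103, 43.0 and 103 CPM in the class and at 7.38 to 15.9 CPM outside (3.07 ± 0.49, edgeR adjusted p = 2.03e-04). The *Atf3* values of the class rested on 6, 18, 2 and 9 counts. *Fos* and *Atf3* were both higher in the class in all 4 libraries. *Fosb* was at 185, 211 and 85.9 CPM in the class in s001 to s003 and at 46.5, 14.3 and 3.69 CPM outside, but at 11.4 CPM (1 count) against 12.8 CPM in s004 (2.80 ± 0.53, edgeR adjusted p = 0.00122). *Egr1* differed by 1.73 ± 0.28 (edgeR adjusted p = 2.31e-04) and *Nr4a1* by 1.78 ± 0.39 (edgeR adjusted p = 0.00548).

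The rest of the 10 genes differed less between the class and the other cells. *Dusp1* (1.02 ± 0.30, edgeR adjusted p = 0.0474) and *Btg2* (1.02 ± 0.30, edgeR adjusted p = 0.0498) lay just within the threshold and were not called once any 1 library was left out. *Fosb* was not called without s002 (log2 difference 2.13, edgeR adjusted p = 0.231) and could not be tested without s001. *Nr4a1* was not called without s001, although its log2 difference there was 1.96 (edgeR adjusted p = 0.0516). *Fos*, *Atf3* and *Egr1* remained called without any 1 of the 4 libraries. *Junb* differed by 0.86 ± 0.30, *Ier2* by 0.31 ± 0.38 and *Jun* by 0.24 ± 0.29 (edgeR adjusted p of 0.102 to 0.833), and *Ier2* in s001 was at 42.8 CPM in the class (3 counts) and 224 CPM outside. On the CPM scale 7 of the 10 were higher in the class in all 4 libraries, the exceptions being *Fosb*, *Jun* and *Ier2*, as were 7.8% of all genes tested. Pooled over libraries, *Fos* was at 808 CPM in the 16 cells led by VSMC markers, 205 CPM in the 28 led by fibroblast markers and 57.3 CPM in the remaining 780. This order did not hold in every library: in s003 the 5 cells led by fibroblast markers held all 7 *Fos* counts of the class and the 1 cell led by VSMC markers held 0. The split rests on few cells that the libraries supplied unequally, with 6, 4, 1 and 5 cells led by VSMC markers and 3, 11, 5 and 9 led by fibroblast markers.

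**Figure D5:**
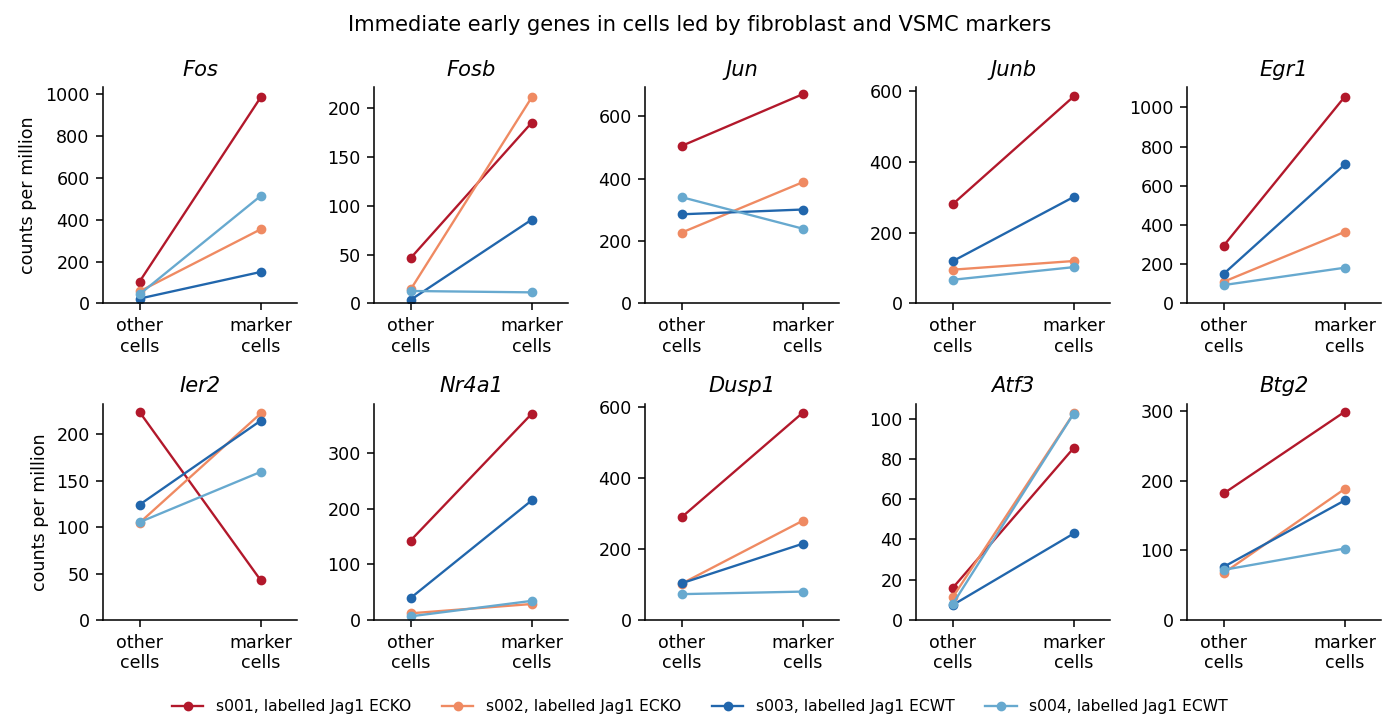
Level of each gene (CPM, linear axes from 0) in the 44 cells with more fibroblast and VSMC than EC marker counts (marker cells) and in the 780 other cells, with 1 line per library. *Fos* and *Atf3* rise towards the marker cells in all 4 libraries, and *Ier2* falls in s001 alone.

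Co-detection was also computed without these cells. With the 44 cells removed, the median ratio over 45 pairs was 1.25, 1.65, 1.25 and 1.37. For the 6 more often detected genes it was 1.24, 1.52, 1.36 and 0.981, with 15, 15, 14 and 7 of 15 pairs above 1. In s004 these 6 genes thus had no excess of co-detection by the median without the 44 cells, while in the other libraries most pairs stayed above 1.

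The genes most alike to the 10 over cells were taken from 4002 genes with a count in at least 10% of thinned cells, by their correlation with the summed count of the 10. A positive value in all 4 libraries, which the choice required, was found for 7.02% of them. The highest mean Pearson r belonged to *Zfp36*, which encodes an mRNA decay factor, at 0.504, 0.381, 0.270 and 0.306 from s001 to s004. *Cyr61*, a matricellular protein gene induced by SRF and YAP, followed at 0.408, 0.197, 0.235 and 0.238. Among the others of the first 10 were *Actg1*, *Ppp1r15a*, *Igfbp7*, *Jund*, *Id3*, *Lmna* and *Col1a2*, with means of 0.149 to 0.177. Of these 10 genes, 4 (*Zfp36*, *Cyr61*, *Ppp1r15a* and *Jund*) are on a list of other immediate early genes, as are 0.500% of the 4002. Without the 44 cells *Zfp36* had a mean r of 0.331, *Cyr61* 0.272 and *Ppp1r15a* 0.182, and the others named here had 0.0828 (*Igfbp7*) to 0.145 (*Id3*). By the same rule, 5 of the first 10 genes were then again among the first 10.

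On that list of 45 other immediate early genes, no gene passed the test between labels. Of its genes 42 were in the table and 34 were abundant enough to test, and 0 were called between labels by edgeR, with 2 at an unadjusted p below 0.05. The differences were positive for 20 of 34, with a median of 0.15 and a range from -0.71 to 1.41. The greatest was that of *Cebpb*, a basic leucine zipper factor of inflammation, at 11.8 and 12.9 CPM in the libraries labelled *Jag1* ECKO and 4.66 and 4.69 CPM in the others (1.41 ± 0.52, edgeR adjusted p = 0.900). The next were *Ier5l* (0.88 ± 0.56), *Csrnp1* (0.78 ± 0.57) and *Trib1* (0.75 ± 0.47, edgeR adjusted p of 0.900 to 0.901 for these 3). Summed over the list, the level was 5066, 3357, 4511 and 3877 CPM, so s001 was again the highest and s002 the lowest.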

How the data were processed

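Libraries were made with SORT-seq, and the authors aligned reads to GRCm38 with STAR (version not given in the sources used here). The deposited values are estimated counts, given for each gene in each cell: UMI numbers corrected by the authors for chance repeats among 4096 possible UMIs, without normalization between cells. When this correction was undone, all values lay within 3.64e-12 of a whole UMI number. The estimated counts were rounded to whole numbers. Columns were assigned to libraries by the name in the labels, and 0 columns of values belonged to none.

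Cells with more than 1200 genes were kept, the minimum that the study's methods state. This left 824 of the 991 deposited cells. The study's text also counts 991 cells, so the cells kept here are a subset of those. No doublet caller was run. Well barcodes, 355 in all, come from a shared plate set: 278 occurred in 2 or more libraries and 47 in all 4. Counts summed per library were tested with edgeR 4.0.16 in R 4.3.3 (TMM, filterByExpr, quasi-likelihood test, Benjamini-Hochberg adjustment over all genes, threshold 0.05), with DESeq2 1.42.0 as an alternative. CPM are counts scaled to the same total per library or class. They are 3′ transcript counts not divided by length, and levels were not compared between genes. Co-detection was computed after thinning to 2837 counts per cell without replacement (seed 11). Depth limits the rarer genes: a library's total for a gene was as low as 7 counts. The comparison by marker class, removal of the 10% of cells with most counts of the 10 genes, and the subset of 6 genes were added after seeing the data. The steps were tested on simulated data. The 10 genes and all lists were chosen with earlier results of these data known. Genes named are the 10, *Jag1*, EC markers and other markers that bear on a result, the 10 most alike over cells (of which 1 is not reported here) and, per list, genes called or else the 4 with the largest absolute log2 difference. *Cnn1*, *Beta-s* and *Ptprc* were named after their values were seen.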

Additional observations from a re-analysis of the deposited data

How the results depend on the processing

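Every edgeR alternative that kept all 4 libraries and the filter on low counts (RLE size factors, library totals alone, other cell filters, recovered UMI numbers, thinning, removal of *Rn45s* and mitochondrial genes, of the 44 cells or of the top 10% of cells) called 0 of the 10 genes, the lowest adjusted p being 0.384. DESeq2, run on 18508 genes without that filter, also called 0 of the 10. Of the 10, *Atf3* did not pass the filter after thinning, nor *Fosb* without the top 10% of cells. With edgeR and without the filter 6 were called. Leaving out 1 library gave 0 to 9 calls among the 10 and 0 to 4 among the other immediate early genes (3 without s001 and 4 without s002, when 1.82% and 4.23% of all genes were called). With 1 library left out, *Jag1* ECKO lay above *Jag1* ECWT for 4 to 10 of the 10, and for 27.1 to 38.9% of all genes. Without the top 10% of cells this held for 2 of the 10 and 16.6% of all genes. Of 148 alternative log2 differences, 146 were positive, the exceptions being *Nr4a1* (-0.83) and *Jun* (-0.30) without s001. The range without 1 library was -0.83 to 3.29 for *Nr4a1* and -0.30 to 0.69 for *Jun*. In the marker class leaving out 1 library gave 3 to 5 calls in place of 7, and *Ier2* went from -0.11 to 0.83. The cause of these changes was not tested.

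Without the top 10% of cells the summed share fell to 0.152%, 0.0584%, 0.0736% and 0.0568% in s001 to s004. It was 0.115% and 0.101% in s003 and s004 without *Rn45s* and mitochondrial genes, and 0.113% in s003 as a mean over cells. The spread between s001 and s002 is as large as the value of s002, so smaller moves in these 2 libraries lie within it. At the 25th percentile of depth (3622 counts) the median pair ratio was 1.55 in s002 and 1.77 in s003 and the mean number of genes per cell was 1.75 in s004. At the lower depth of 1418 counts, the ratio in s003 was 2.08 and the mean number was 1.90, 1.09 and 0.870 in s001, s003 and s004. In s004 the ratio was 1.97 with seed 12 and 1.37 without the 44 cells. With 6 genes it was 1.48 in s002 and 1.11 in s004. No paired analysis was possible because replicates carry no number in the labels.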

Other observations

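Genes upstream of the immediate early response did not pass the test between labels. Of 17 such genes, all tested, 0 were called by edgeR, 0 were at an unadjusted p below 0.05, and the median log2 difference (*Jag1* ECKO minus *Jag1* ECWT) was -0.13, with 6 above 0. The largest in size were those of *Mkl1*, an SRF cofactor (-0.57 ± 0.34, SE), the ternary complex factor *Elk4* (0.51 ± 0.44), the NF-kappaB subunit *Rela* (0.50 ± 0.22) and *Elk3* (0.40 ± 0.20, edgeR adjusted p of 0.900 to 0.919 for these 4). *Rela* was at 121, 87.1, 82.6 and 66.3 CPM in s001 to s004.

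Heat shock genes, which also respond to stress, had small differences. Of 10 genes tested, 0 were called, 1 was at an unadjusted p below 0.05, and the median was 0.12, with 9 above 0. *Hspb1*, a small heat shock protein gene, was at 376, 248, 255 and 168 CPM (0.58 ± 0.24, edgeR adjusted p = 0.900). *Dnajb1* (0.31 ± 0.27), *Hspe1* (0.23 ± 0.19) and *Hspa8* (0.14 ± 0.17) followed. The summed level of the 10 heat shock genes was 1549, 1266, 1272 and 1202 CPM, also highest in s001.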
